A study of Mus musculus with 6 samples.

Results

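This account describes 57 mouse genes of 4 families of RNA-binding and splicing proteins, matched by gene symbol. The families held 21 Rbm genes (RNA-binding motif proteins) and 9 Srsf genes (serine/arginine-rich splicing factors, SR proteins). They also held 9 Sf3a and Sf3b genes (subunits of splicing factor 3, called Sf3 here) and 18 Hnrnp genes (heterogeneous nuclear ribonucleoproteins). The members were 57 of the 12393 genes on the array and were covered by 151 of the 20380 probe sets that carried a single gene symbol. Each gene was represented by its brightest probe set over the 6 arrays. Transcripts were measured in mouse multiple myeloma cells, labelled as malignant plasma cells of bone marrow, on 1-colour Affymetrix arrays. The control group was 3 arrays of cells kept without serum and without IGF-1, and the IGF-1 group was 3 arrays of cells kept without serum in the presence of 100 ng/ml insulin-like growth factor 1, a growth and survival factor for these cells; both were kept so for 12 h. The labels name no cell line, strain or animal and do not say whether replicates were separate cultures, so the p-values reflect only how much these samples varied, and that variation may be technical.

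Splicing removes introns from new transcripts in the nucleus. The SF3A and SF3B proteins belong to the U2 particle, which binds the intron's branch site. SR proteins mostly bind exons and recruit the splicing machinery, a step tuned by CLK and SRPK kinases that phosphorylate their arginine-serine repeats. The hnRNP proteins coat new transcripts and often hold splice sites back, and many also act in transport or decay of mRNA. RBM proteins are a mixed group that share an RNA recognition motif. SR and hnRNP genes are known for controlling their own mRNA through exons that lead to its decay, so 1 gene can give several transcript forms and its probe sets can differ.

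Signals were compared as log2(signal + 15.57) with limma's moderated test, and a gene is said to have risen or fallen when its p, adjusted over all 11313 probe sets tested, was under 0.05. Array medians lay between 49.96 and 55.36, and arrays correlated on the log2 scale at 0.9777 to 0.9844 inside a group and at 0.9563 to 0.965 across groups. Of 7 plasma cell markers on the array all were bright enough to test, and 2 fell, Tnfrsf17 (-0.51, adjusted p = 0.008) and Slamf7 (-0.62, adjusted p = 0.013), while 0 rose and 6 differences were negative. The sum of their signals was 11291 to 12215 in control and 10443 to 10881 in IGF-1 arrays, without overlap. By contrast 0 of 5 mature B cell and 0 of 6 T cell markers were bright enough to test. Neutrophil and macrophage markers also gave signal. Of 10 tested neutrophil markers 3 fell and 0 rose, and the sum of their signals was 24345 to 29009 in control and 22101 to 24619 in IGF-1 arrays. Of 9 tested macrophage and monocyte markers 4 fell and 1 rose, with sums over the 11 on the array of 5750 to 7663 and 4919 to 6759. No marker was listed at 0. The part of these markers' cells in the results below was not tested. In such bulk samples fewer cells of a type and less RNA per cell cannot be told apart.

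With IGF-1 the families did not move as a block. Several SR protein transcripts fell, together with Rbm39 and Rbm5, while most Sf3 transcripts had small positive differences that did not pass and most Hnrnp transcripts stayed close to 0. Of 56 members bright enough to test, 2 rose, 6 fell and 48 did not pass. Over all 6895 genes tested, 7.05% rose and 8.05% fell, so the members' 3.57% and 10.7% lay near the background. By family, 4 of 9 Srsf genes fell and 1 rose, and 2 of 20 Rbm genes fell and 0 rose. Of 18 Hnrnp genes 1 rose and 0 fell, and of 9 Sf3 genes 0 rose and 0 fell. At an unadjusted p under 0.05 in the same limma fit, 4 Sf3 genes were higher and 1 lower. Over all 6895 genes tested, 993 were higher and 1108 lower at that threshold. Median log2 differences were -0.34 for Srsf, -0.10 for Rbm, -0.05 for Hnrnp and 0.22 for Sf3, beside -0.01 for all genes. The difference between families was described, not tested.

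These counts depended on single arrays, on the scaling and on the settings of the test. The number of Srsf genes that fell was 0 without IGF-1 2, 1 without IGF-1 3 or control 2, 2 without control 3, 3 without control 1 and 4 without IGF-1 1. With all arrays it was 2 without limma's intensity trend, and 2 when dim probe sets were tested too. When arrays were scaled to the spiked hybridization controls instead of the authors' common trimmed mean, the median of all genes moved from -0.01 to 0.29, and 20 members rose and 1 fell. Of all 11313 probe sets tested, 3649 rose and 230 fell under that scaling. Relative to the shift of all genes the family medians were -0.32 for Srsf, -0.09 for Rbm, -0.03 for Hnrnp and 0.24 for Sf3. They had been -0.33, -0.09, -0.04 and 0.23. That scaling divides each array by a single factor, so these relative values could hardly change. Their closeness is therefore no support for the contrast between families. Every change given here is relative to the other transcripts of the array.

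**Figure D1:**
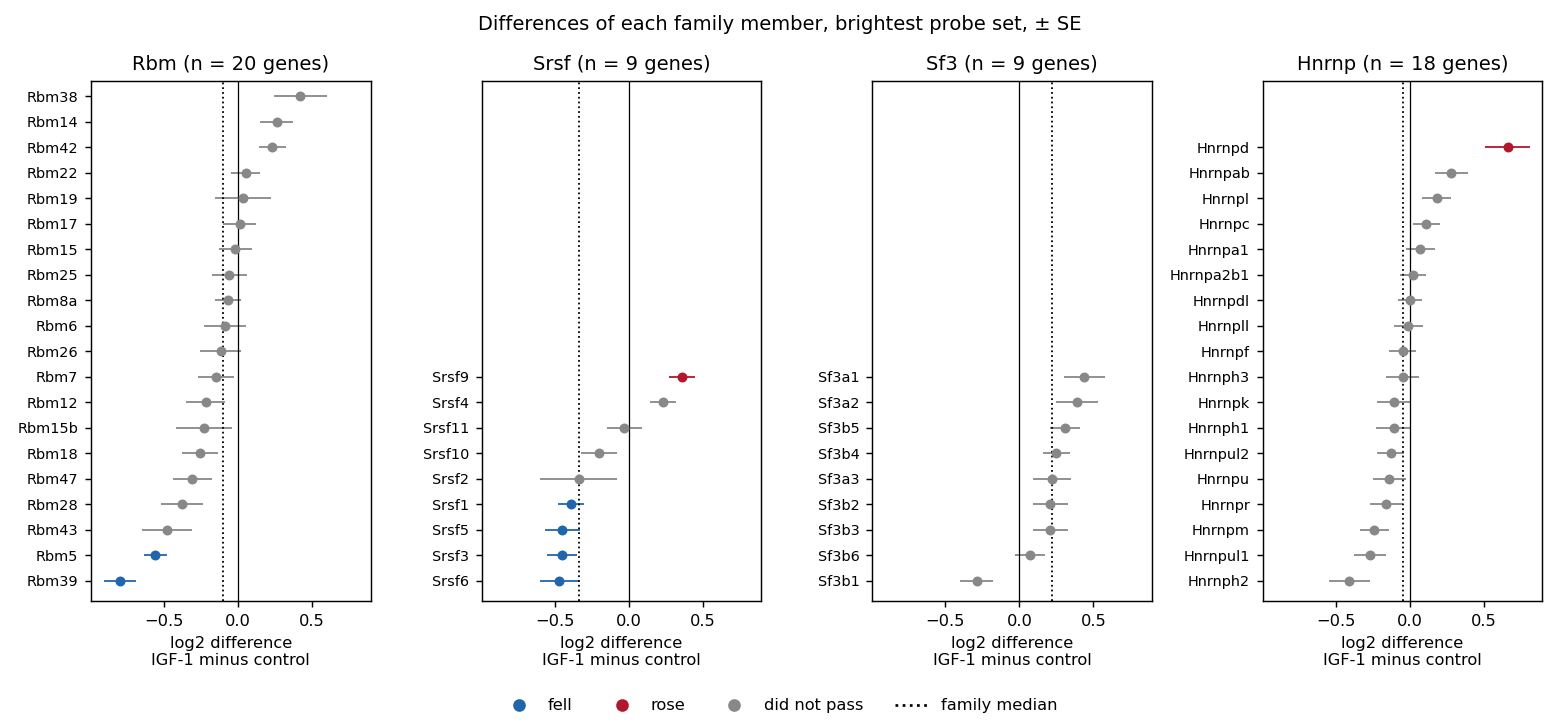
The 56 tested members by family, each at its log2 difference (IGF-1 minus control, horizontal axis) with the standard error as a bar; blue points fell, red points rose, grey points did not pass, and the dotted line is the family median. The Srsf median lies at -0.34 and the Sf3 median at 0.22, with Rbm39 lowest (-0.80) and Hnrnpd highest (0.66).

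The same contrast was visible array by array. For each gene the log2 signal was set against its own mean over the 6 arrays, and the median over a family was taken in each array. For Srsf these medians were 0.11, 0.21 and 0.15 in control 1 to 3 and 0.00, -0.20 and -0.11 in IGF-1 1 to 3, with no overlap between groups. For Sf3 they were -0.09, -0.24 and -0.05 in the controls and 0.08, 0.12 and 0.14 with IGF-1, again without overlap but in the opposite direction. Control 2 had both the highest Srsf and the lowest Sf3 value, and IGF-1 1 was nearest to the controls for both. For Rbm the controls were at 0.12, -0.03 and 0.11 and the IGF-1 arrays at -0.03, -0.06 and -0.02, so control 2 lay among the IGF-1 arrays. For Hnrnp the groups overlapped fully, from -0.06 to 0.04 in the controls and from -0.06 to 0.02 with IGF-1.

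**Figure D2:**
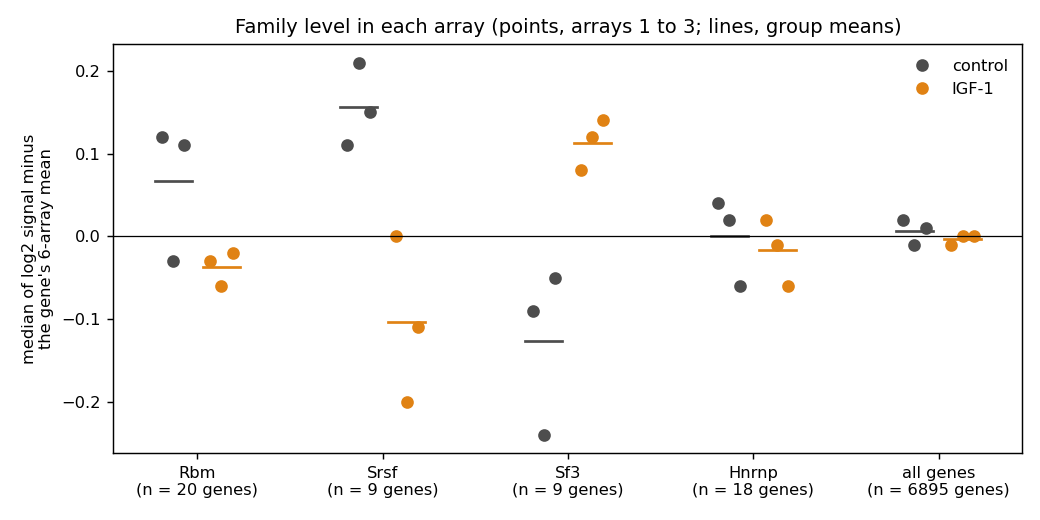
Family level in each array: the median over a family's genes of the log2 signal minus the gene's mean over 6 arrays (vertical axis), for the 4 families and for all 6895 genes; points are arrays 1 to 3 of each group and lines are group means. Srsf points are higher in the controls (0.11 to 0.21) than with IGF-1 (-0.20 to 0.00), Sf3 points lower (-0.24 to -0.05 against 0.08 to 0.14), and all genes stay within -0.01 and 0.02.

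The largest change among all members was that of Rbm39, which encodes a splicing factor related to U2AF2 that also acts as a transcriptional coactivator and is the target of the degrader drug indisulam. Its brightest probe set read 406, 486 and 397 in control 1 to 3 and 240, 243 and 236 in IGF-1 1 to 3. Every IGF-1 array lay far below every control, and the IGF-1 arrays hardly differed among themselves. The log2 difference was -0.80 ± 0.11 (SE, adjusted p = 0.0013), a 1.74-fold fall. It passed without each array in turn (highest adjusted p 0.008) and under the hybridization control scaling, where it was -0.48 (adjusted p = 0.0095). Rbm39 had 8 tested probe sets, all lower with IGF-1, by -1.11 to -0.25, and 4 passed. The steepest read 246, 247 and 237 in the controls and 126, 91.7 and 98 with IGF-1 (-1.11 ± 0.12, adjusted p = 0.00062). The shallowest had differences of -0.25 and -0.27 with overlapping groups (adjusted p = 0.19 and 0.17). With the 8 probe sets averaged before the limma test, the difference was -0.54 (adjusted p = 0.0077). Probe sets of Rbm39 thus gave one direction and unequal sizes; where in the transcript each one lies was not analysed here.

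Rbm5 encodes a splicing regulator lost in many lung cancers and known for controlling exon choice in apoptosis genes. Its brightest probe set read 993, 983 and 1040 in the controls and 674, 689 and 664 with IGF-1. The groups were tight and well apart, with a log2 difference of -0.56 ± 0.08 (adjusted p = 0.0025), which held without each array in turn (highest adjusted p 0.013). Under scaling to the hybridization controls it was -0.24 and did not pass (adjusted p = 0.13). All 4 tested probe sets of Rbm5 were lower, from -0.56 to -0.25, and 1 passed. Averaged before the limma test, the Rbm5 probe sets gave a difference of -0.37 (adjusted p = 0.016). Rbm6, its neighbouring paralog, had a difference of -0.09 ± 0.14 (adjusted p = 0.73) and was looked up after its values were seen.

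Among SR proteins, Srsf1, the founding member of the family and a known proto-oncogene, read 893, 980 and 975 in the controls and 764, 744 and 662 with IGF-1. The groups did not overlap, and the log2 difference was -0.39 ± 0.09 (adjusted p = 0.022). Srsf3, which encodes the smallest SR protein, read 434, 423 and 393 against 308, 269 and 328, also without overlap (-0.45 ± 0.10, adjusted p = 0.018). Srsf5, a regulator of alternative exon use, read 1973, 2373 and 1816 against 1662, 1371 and 1445 (-0.45 ± 0.12, adjusted p = 0.027). Srsf6, a longer SR protein with a pair of RNA recognition motifs, read 831, 880 and 810 against 756, 553 and 524 (-0.47 ± 0.13, adjusted p = 0.038). In Srsf6 the array IGF-1 1 was close to the controls while the others were far below them. The falls were 1.31-fold to 1.38-fold, and each call was lost with 1 array left out. The arrays were control 2 and IGF-1 2 for all 4 genes, IGF-1 3 for Srsf1, Srsf5 and Srsf6, control 3 for Srsf1 and Srsf6, and control 1 for Srsf6. The highest adjusted p was 0.085 for Srsf1, 0.071 for Srsf3, 0.11 for Srsf5 and 0.13 for Srsf6. With scaling to the hybridization controls the differences of these genes were -0.06, -0.14, -0.13 and -0.15, and none passed.

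Srsf9 went the other way. It encodes a small SR protein related to SRSF1. Its only probe set read 784, 824 and 737 in the controls and 1008, 1042 and 963 with IGF-1, a log2 difference of 0.36 ± 0.09 (adjusted p = 0.023). All IGF-1 arrays were above all controls, but the call was lost without control 3 or any 1 of the IGF-1 arrays (highest adjusted p 0.089). Srsf4, a long SR protein, also read higher in every IGF-1 array (440, 479 and 448 against 497, 560 and 561) without passing (0.23 ± 0.09, adjusted p = 0.12). The remaining family members were Srsf2, Srsf10 and Srsf11, with differences of -0.34, -0.20 and -0.03 that did not pass. Srsf2, which binds exon enhancers and is mutated in myelodysplasia, was uneven among the controls, at 519, 210 and 407, against 340, 248 and 255 with IGF-1. Control 2 was below every IGF-1 array there, and without it Srsf2 was lower by -0.70 (adjusted p = 0.036).

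The promoters of the 8 members that changed are shown because 4 genes of a single family fell together. The windows are the 150 bases before the transcription start, written 5′ to 3′ on the gene's own strand, from RefSeq on GRCm38.p6. Capitals mark matches, on either strand, to a CCAAT box (CCAAT), a GC box (GGGCGG), a cAMP response element core (TGACGT), an E-box (CACGTG), a FOXO site (GTAAACA) and a TATA box (TATAAA), and no marked match overlaps another. Rbm39 has 2 starts in the table, of which the most upstream is used.
Rbm39, chr2:156180239-156180388, minus strand: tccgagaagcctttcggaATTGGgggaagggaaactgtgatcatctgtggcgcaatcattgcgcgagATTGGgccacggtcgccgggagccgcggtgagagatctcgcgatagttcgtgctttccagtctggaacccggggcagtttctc
Rbm5, chr9:107771003-107771152, minus strand: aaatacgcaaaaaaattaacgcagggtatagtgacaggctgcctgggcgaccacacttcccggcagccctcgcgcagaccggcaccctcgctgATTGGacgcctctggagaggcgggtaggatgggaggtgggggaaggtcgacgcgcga
Srsf1, chr11:88047223-88047372, plus strand: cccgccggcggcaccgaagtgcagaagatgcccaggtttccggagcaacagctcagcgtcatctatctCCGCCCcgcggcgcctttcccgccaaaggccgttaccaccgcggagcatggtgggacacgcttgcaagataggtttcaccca
Srsf3, chr17:29032510-29032659, plus strand: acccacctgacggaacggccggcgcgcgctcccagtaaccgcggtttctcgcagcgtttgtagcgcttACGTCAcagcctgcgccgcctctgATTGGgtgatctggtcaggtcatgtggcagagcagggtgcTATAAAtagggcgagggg
Srsf5, chr12:80945349-80945498, plus strand: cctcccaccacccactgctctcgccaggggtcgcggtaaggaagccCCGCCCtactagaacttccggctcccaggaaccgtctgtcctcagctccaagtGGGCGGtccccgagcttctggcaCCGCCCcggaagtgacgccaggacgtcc
Srsf6, chr2:162931358-162931507, plus strand: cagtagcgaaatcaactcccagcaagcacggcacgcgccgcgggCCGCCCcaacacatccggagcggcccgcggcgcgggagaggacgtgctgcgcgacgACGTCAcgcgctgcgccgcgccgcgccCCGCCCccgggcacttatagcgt
Srsf9, chr5:115327027-115327176, plus strand: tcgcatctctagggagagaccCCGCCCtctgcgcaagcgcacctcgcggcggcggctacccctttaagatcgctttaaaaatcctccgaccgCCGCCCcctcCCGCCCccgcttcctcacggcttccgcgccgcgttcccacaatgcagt
Hnrnpd, chr5:99978939-99979088, minus strand: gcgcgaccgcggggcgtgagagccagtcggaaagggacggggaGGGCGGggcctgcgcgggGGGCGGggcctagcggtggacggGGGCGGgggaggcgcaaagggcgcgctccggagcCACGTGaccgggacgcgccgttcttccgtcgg

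The windows of the genes that fell held no motif in common. A CCAAT box stood in those of Rbm39, Rbm5 and Srsf3, in each case on the opposite strand, and a GC box in those of Srsf1, Srsf5 and Srsf6. The cAMP response element core was in Srsf3 and Srsf6, and Srsf3 alone of the 8 had a TATA box. The 2 genes that rose, Srsf9 and Hnrnpd, both held GC boxes, 3 in each window, and Hnrnpd also held an E-box. Of 56 tested members, 50 had a promoter in the table. A GC box was in 8 of 9 Srsf windows, whichever way the gene moved, against 29.0% of 27025 genes in the table. It was in 44.0% of the 50 member windows, a CCAAT box in 40.0% (25.3% of all genes), a cAMP response element core in 10 of 50 (5.27%), an E-box in 6.0% (4.28%) and a TATA box in 8.0% (8.08%). A FOXO site was in 0 of 50 member windows and in 1.72% of all. The member windows were also richer in G and C, with a median of 62.0% against 54.0%. The part of that base composition in the shares was not tested. The 27025 genes were not limited to those bright enough to test, unlike the members. Shares among all genes tested here were not computed. A match describes letters in the window and is no evidence of binding.

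**Figure D3:**
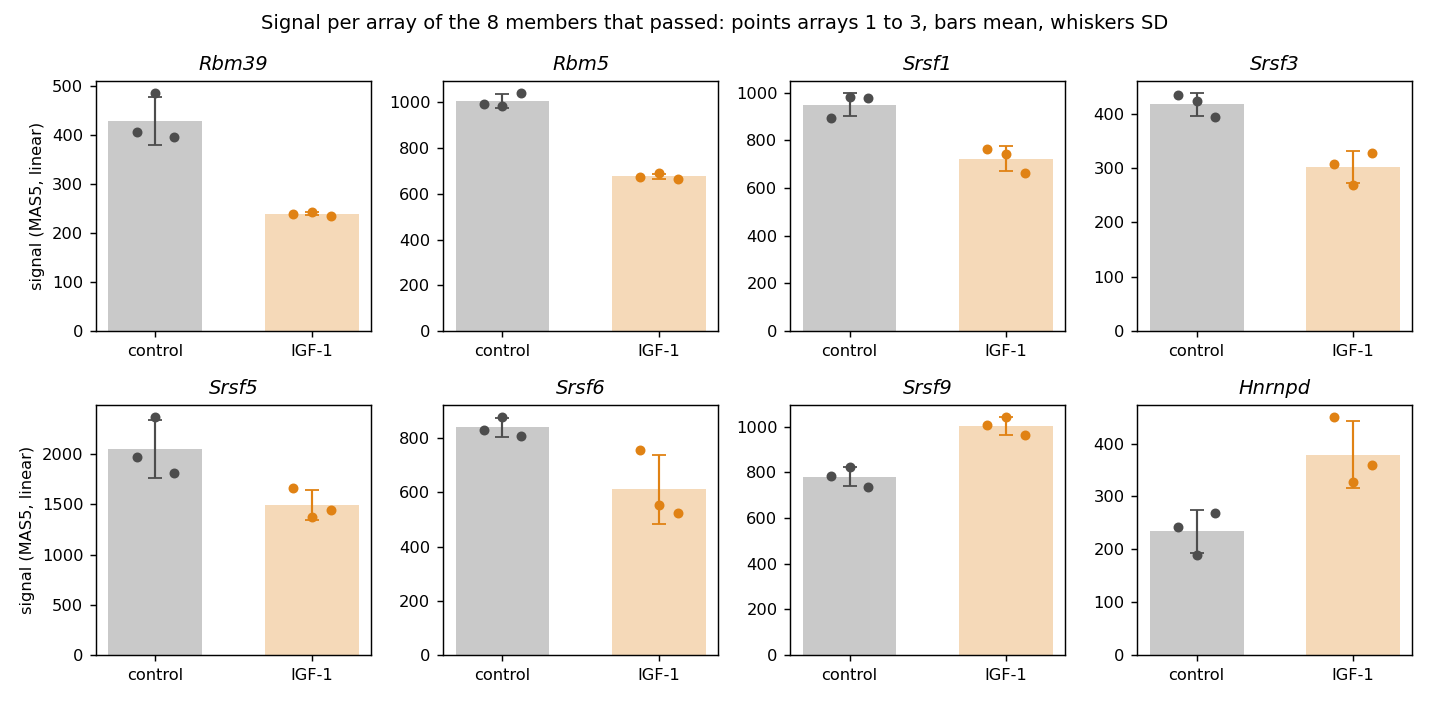
MAS5 signal (linear, vertical axis from 0) of the 8 members that passed, brightest probe set; points are arrays 1 to 3, bars group means and whiskers SD. Rbm39, Rbm5, Srsf1, Srsf3, Srsf5 and Srsf6 are lower in each IGF-1 array than in any control, and Srsf9 and Hnrnpd are higher in each.

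Among Sf3 genes 8 of 9 had positive differences, from 0.07 to 0.44, and none passed in its brightest probe set. Under the hybridization control scaling, which raised the median of all genes, 8 of 9 rose, as did 7 of 18 Hnrnp genes, 3 of 20 Rbm genes and 2 of 9 Srsf genes. Of all 11313 probe sets tested, 3649 rose under that scaling, a larger share than among the Rbm and Srsf genes. The Hnrnp share lay near it. Sf3a1 and Sf3a2, which with Sf3a3 form the SF3A complex, read higher in every IGF-1 array than in any control. Sf3a1 read 188, 134 and 200 against 253, 230 and 233 (0.44 ± 0.14, adjusted p = 0.062). Sf3a2 read 636, 462 and 691 against 822, 763 and 747 (0.39 ± 0.14, adjusted p = 0.082). Control 2 was the lowest array for both. Sf3b4 and Sf3b5, small subunits of SF3B, were also without overlap between groups. Sf3b5 read 508, 520 and 532 against 581, 673 and 697 (0.31 ± 0.10, adjusted p = 0.056), and Sf3b4 had a difference of 0.25 ± 0.09 (adjusted p = 0.097). Sf3b2, Sf3b3, Sf3a3 and Sf3b6 lay between 0.07 and 0.22 with overlapping groups.

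Sf3b1 was the exception. It encodes the subunit that grips the branch site and is recurrently mutated in myelodysplasia. Its brightest probe set read 1960, 2302 and 1726 in the controls and 1690, 1555 and 1597 with IGF-1 (-0.29 ± 0.11, adjusted p = 0.096). A further probe set read 1205, 1537 and 1292 against 912, 967 and 940, and it fell (-0.50 ± 0.10, adjusted p = 0.011). Both had all IGF-1 arrays below all controls, though the brightest was at 0.03 under scaling to the hybridization controls. In all, 4 Sf3 genes had every IGF-1 array above every control and 1 had every one below, in a data set where this held for 17.1% and 18.2% of genes.

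Hnrnpd was the 1 Hnrnp gene that rose. It encodes AUF1, which binds AU-rich elements in mRNA and directs their decay. Its single probe set read 243, 190 and 268 in the controls and 451, 328 and 359 with IGF-1, a log2 difference of 0.66 ± 0.15 (adjusted p = 0.016). All IGF-1 arrays were above all controls, with IGF-1 1 highest. The call was lost without IGF-1 1 or control 2 (highest adjusted p 0.058). Its close relatives did not pass: Hnrnpdl had a difference of -0.00 ± 0.08 (adjusted p = 0.98). Hnrnpab, which shares the same pair of RNA recognition motifs, had one of 0.28 ± 0.11 (adjusted p = 0.12). Of 5 tested probe sets of Hnrnpab 1 rose, reading 729, 606 and 685 against 1032, 921 and 869 (0.47 ± 0.10, adjusted p = 0.015), and 1 was lower (-0.26, adjusted p = 0.19).

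The best-known hnRNP genes did not pass. Hnrnpa1, a splicing repressor that also controls exon choice in Pkm, read 639, 740 and 589 against 669, 720 and 677 (0.07 ± 0.10, adjusted p = 0.67). Hnrnpa2b1, its partner in that choice, had a difference of 0.02 ± 0.09 (adjusted p = 0.91) and Hnrnpc, which guards against use of cryptic exons, one of 0.11 ± 0.09 (adjusted p = 0.44). Hnrnpk, a poly(C)-binding protein, had one of -0.11 ± 0.11 (adjusted p = 0.57). Hnrnpu, a nuclear scaffold protein, had one of -0.14 ± 0.11 (adjusted p = 0.45). The groups overlapped for all of these. In Hnrnpu and its paralog Hnrnpul2 a dimmer probe set passed. For Hnrnpu it read 130, 120 and 144 against 98.5, 80.7 and 99.2 (-0.44 ± 0.13, adjusted p = 0.042), while of the brighter ones 1 was at -0.26 with all IGF-1 arrays below all controls (adjusted p = 0.16) and 2 were at -0.04 and -0.00. For Hnrnpul2 it read 178, 213 and 205 against 159, 137 and 140 (-0.41 ± 0.11, adjusted p = 0.038), and the brightest had -0.13 ± 0.09. Hnrnpll, which directs the CD45 splicing seen in memory and plasma cells and was chosen after its values were seen, read 639, 587 and 582 against 675, 584 and 544 (-0.01 ± 0.10, adjusted p = 0.97). The largest negative difference of the family was that of Hnrnph2, a G-run binding protein, at -0.41 ± 0.14 (adjusted p = 0.066).

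The Rbm genes that did not pass ranged from -0.48 to 0.42. Rbm7, which brings nuclear transcripts to the exosome, had a difference of -0.15 ± 0.12 (adjusted p = 0.44). Rbm8a, the Y14 subunit of the exon junction complex, had one of -0.07 ± 0.09 (adjusted p = 0.66). The ends of that range, named after their values were seen, were Rbm43 (71.2, 57.5 and 77.6 against 36.1, 43.3 and 55.6; adjusted p = 0.086) and Rbm38. Rbm38, a p53 target that stabilises the mRNA of the cell cycle inhibitor p21, read 122, 118 and 178 against 176, 237 and 162, with overlapping groups (0.42 ± 0.18, adjusted p = 0.13). Rbm28, a nucleolar protein of ribosome assembly, read 608, 542 and 528 against 540, 391 and 364 (-0.38 ± 0.14, adjusted p = 0.095). Rbm4b was too dim to test, at 31.8, 31.8 and 47.5 against 52.6, 52.5 and 52.2. Rbm3, the cold-inducible member, had no probe set with its symbol alone and is given no value.

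Probe sets of a gene often differed in size, and some in sign. Of 131 tested member probe sets 3 rose and 12 fell, while over all probe sets tested 6.82% rose and 8.28% fell. Of 32 members with more than 1 tested probe set, 18 had all differences of 1 sign and 14 had both signs, with a median distance of 0.30 between the lowest and the highest. Rbm39 was the 1 gene with more than 1 probe set called, so the calls hardly bear on whether probe sets of a gene go the same way. Among members with at least 4 tested probe sets, all were lower with IGF-1 in Rbm39 (8), Srsf1 (6), Srsf3 (5), Hnrnpu (5), Srsf2 (4), Rbm5 (4) and Hnrnpf (4), the last between -0.06 and -0.01. In Srsf1, Srsf3 and Srsf6, though, just 1 probe set passed, and in Srsf6 another was at 0.07. When a gene's probe sets were averaged before the test, 1 of 9 Srsf genes fell and the family median was -0.18, while the Sf3 median was 0.14. The averaged differences of Srsf1, Srsf3 and Srsf6 were -0.24, -0.24 and -0.17 (adjusted p = 0.1, 0.14 and 0.22), so these 3 calls rested on the brightest probe sets. For Srsf1 that probe set carries the suffix of those that may also bind related transcripts. The brightest probe sets of Sf3a2, Hnrnpab, Rbm7, Srsf2 and Hnrnpll carry such a suffix too.

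**Figure D4:**
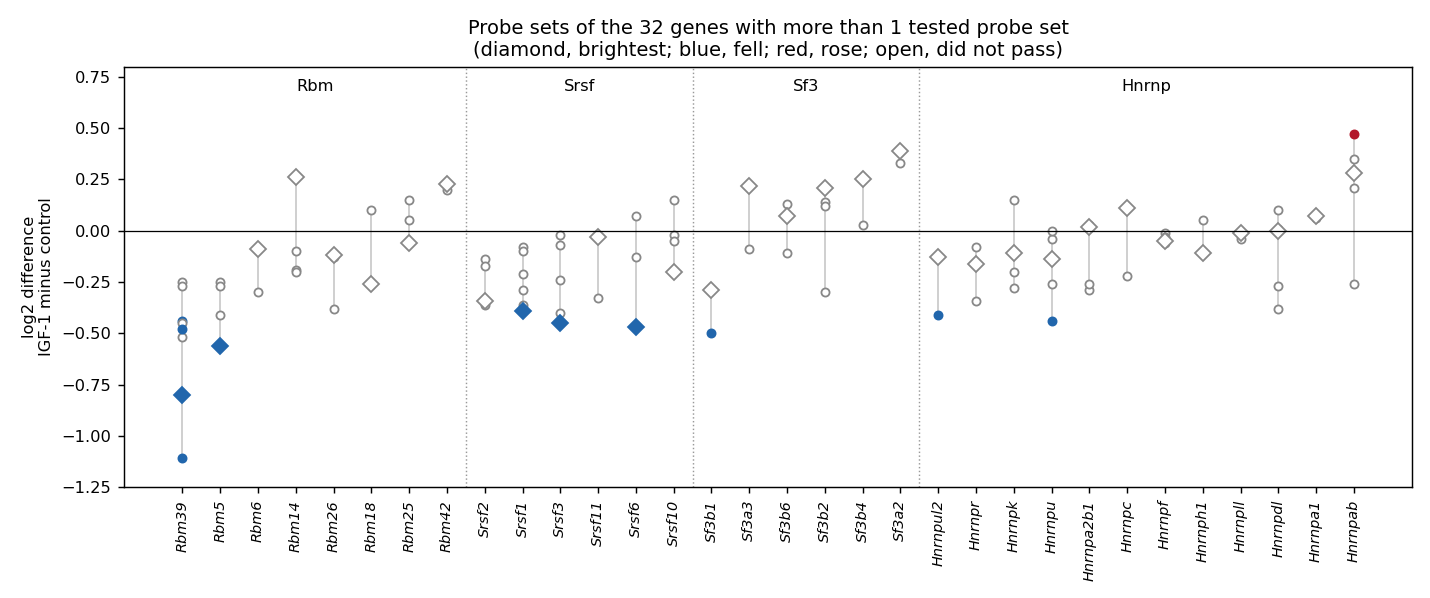
Log2 difference (IGF-1 minus control, vertical axis) of every tested probe set of the 32 members that had more than 1, grouped by family; diamonds are the brightest, filled blue fell, filled red rose and open symbols did not pass. All 8 symbols of Rbm39 are below 0, down to -1.11, and 14 of the 32 genes have symbols on both sides of 0.

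Other splicing genes were read from lists of known roles. Of 19 tested SR-related proteins and SR kinases, 5 fell, 0 rose and 14 did not pass, and 17 differences were negative (median -0.15). Over all genes tested 8.05% fell, 7.05% rose and 51.3% of differences were negative. Clk1, a kinase that phosphorylates SR proteins in the nucleus, had the largest fall, from 1433, 1994 and 1571 to 864, 912 and 777 (-0.95 ± 0.12, adjusted p = 0.0013). All its IGF-1 arrays lay below all controls, and the call held without each array in turn (highest adjusted p 0.0067). Scaled to the hybridization controls its difference was -0.62 (adjusted p = 0.0018). Tra2a, an SR-like activator of exon inclusion, read 186, 199 and 171 against 128, 136 and 110 (-0.52 ± 0.12, adjusted p = 0.017), and Srek1, an SR-related regulator, fell by 0.48. Tra2a lost its call without control 2 or IGF-1 3 (highest adjusted p 0.062), and Srek1 with any array but control 3 left out (highest 0.14). Of 3 tested probe sets of Srek1 1 fell, and with its probe sets averaged before the limma test its difference was -0.21 (adjusted p = 0.32). The others were the kinase Clk4 (-0.42, adjusted p = 0.036) and Son, a scaffold of nuclear speckles where SR proteins are stored (-0.46, adjusted p = 0.017), named beyond the rule. Of tested probe sets 1 of 2 fell for Clk4 and 2 of 5 for Son. Luc7l2 and Rnps1 did not pass in their brightest probe set, though 3 of 5 and 1 of 4 tested ones fell. Clk2, Clk3, Srpk1 and Srpk2 did not pass. The count of falls was 1 without control 2 and 2 without IGF-1 2 or IGF-1 3, and 1 under the hybridization control scaling.

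Small nuclear ribonucleoprotein (snRNP) proteins form the core of the spliceosome. Of 17 tested, 4 rose, 0 fell and 13 did not pass (median 0.11), the 4 being Snrnp40 (0.46 ± 0.12, adjusted p = 0.032), Snrpd3 (0.36), Snrpc (0.33) and Lsm3 (0.30). Of 2 tested probe sets of Snrpd3 1 rose, and with its probe sets averaged before the limma test its difference was 0.05 (adjusted p = 0.77). Snrpc, of the U1 particle that binds the 5′ splice site, read 640, 581 and 595 against 766, 763 and 762. The count of rises was 0 without control 3, IGF-1 1 or IGF-1 2, 1 without control 2 or IGF-1 3 and 3 without control 1, and 12 under the hybridization control scaling. Of 30 tested PRP and catalytic-step factors, 2 rose (Prpf3, 0.54 ± 0.13, adjusted p = 0.021, and Cwc27, 0.48) and 3 fell (Prpf39, Snw1 and Crnkl1, -0.44 to -0.37). Over all genes tested 7.05% rose and 8.05% fell, so these counts lay near the background. All 5 lost their call with single arrays left out: Prpf3 with 3 of the 6 arrays (IGF-1 1, IGF-1 2 and control 1), Cwc27 with 4 (all but IGF-1 3 and control 1), Snw1 with 4 (all but IGF-1 1 and control 1), Prpf39 with 5 (all but control 1) and Crnkl1 with 5 (all but IGF-1 1). The 3 falls were also lost under the hybridization control scaling. Of 10 U2 auxiliary and branch-site factors 0 rose and 0 fell, with differences from -0.20 to 0.29. Of 15 genes of the exon junction complex and mRNA export 1 rose, the export adaptor Alyref (0.40 ± 0.09, adjusted p = 0.02), and of 7 SMN complex genes 1 rose, Gemin2 (0.45 ± 0.12, adjusted p = 0.035). Single calls in lists this short, where 7.05% of all genes rose, are not read as a result about the lists. Gemin2 lost its call with any 1 of the 6 arrays left out (adjusted p 0.054 to 0.11), and Alyref without IGF-1 2, IGF-1 3, control 1 or control 3 (highest 0.077).

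Among 32 further splicing regulators 1 rose and 2 fell, no more than the 7.05% and 8.05% of all genes tested. The PTB paralogs Ptbp1 and Ptbp3 went in opposite directions, and Ptbp2 was at -0.40 ± 0.15 without passing (adjusted p = 0.097). Ptbp1, which represses exons flanked by pyrimidine tracts, read 880, 848 and 775 against 1246, 948 and 1111 (0.39 ± 0.11, adjusted p = 0.041). Ptbp3, its paralog of blood cells, read 1279, 1235 and 1180 against 957, 960 and 836 (-0.42 ± 0.09, adjusted p = 0.014), and all 3 of its tested probe sets fell. Both had groups without overlap, but Ptbp1 lost its call with any 1 control left out, and with IGF-1 1 or IGF-1 3 left out (adjusted p up to 0.12). Ptbp3 lost it without IGF-1 3 (adjusted p = 0.058) and, at -0.10, with scaling to the hybridization controls. Celf2, which regulates splicing in lymphocytes, fell from 420, 354 and 353 to 271, 212 and 203 (-0.69 ± 0.13, adjusted p = 0.0067). It passed without each array in turn, but not with that scaling (-0.38, adjusted p = 0.063). In this list Fubp1, Sfpq and Syncrip did not pass in the brightest probe set, but a dimmer one fell. In Pcbp4 a dimmer one rose. The brightest probe set of Fubp1 was at 0.30 (adjusted p = 0.14).

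**Figure D5:**
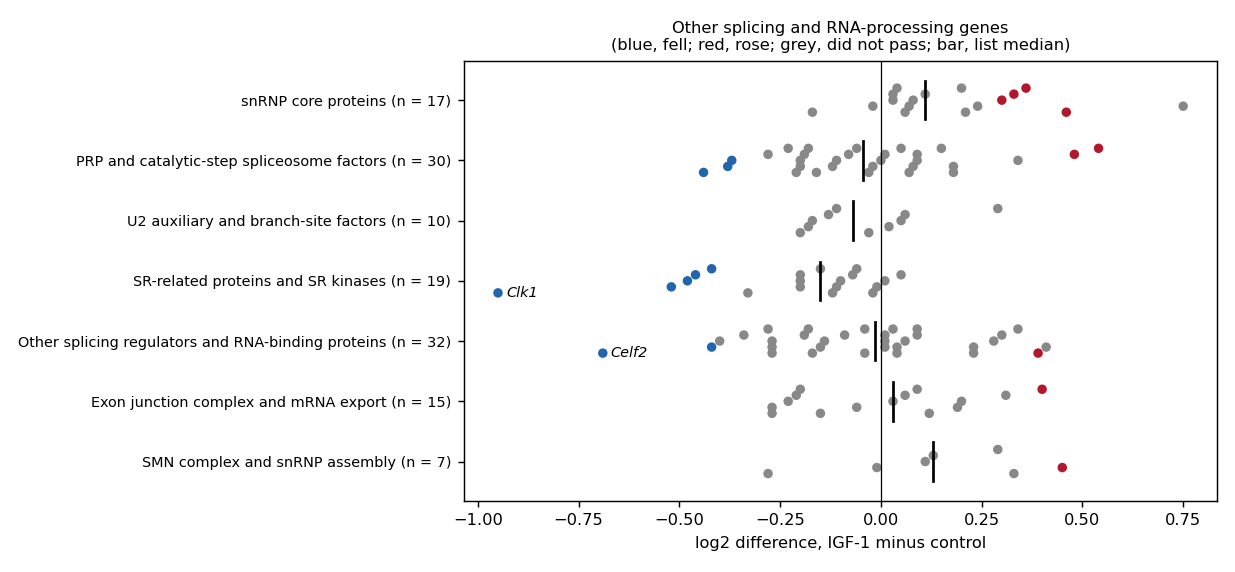
Log2 differences (IGF-1 minus control, horizontal axis) of tested genes in 7 lists of other splicing and RNA-processing genes; each point is 1 gene by its brightest probe set, blue fell, red rose, grey did not pass, and the black bar is the list median. Points of the SR-related list lie mostly to the left of 0, with Clk1 at -0.95, and those of the snRNP core list mostly to the right.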

How the data were processed

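The deposited table holds an intensity on a linear scale for each probe set in each array; the submitters' processing notes name MAS5 and GCOS. Their versions and the target of the scaling were not found in those notes. The trimmed mean was 150.1 in each array, so the authors had scaled the arrays to a common level. No further normalization was applied. Of 22690 probe sets, 64 were controls, 20380 had 1 gene symbol, 691 several and 1555 none. Members were matched on the symbol in the platform annotation, and 13 probe sets with several symbols were left out, 1 of which begins with a member symbol.

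The test was limma 3.58.1 in R 4.3.3 (intensity trend, two-sided, Benjamini-Hochberg) on log2(signal + 15.57), the 25th percentile of all signals, for the 11313 probe sets with a mean signal above 53.61, the median. Fold changes on this scale understate changes of dim probe sets. Signals are linear; errors of differences are standard errors. On simulated data with 200 of 11313 probe sets changed, the limma fit called 24.9% of log2 changes of 0.5 and 79.8% of changes of 1. The share of changed probe sets and their spreads differ in these data, so these rates need not hold here. A gene that did not pass may still have changed.

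The members, lists, motifs and named-gene rule were chosen with earlier results of these data known. The rule named all members past the threshold, the 3 brightest per family, members whose probe sets disagreed, 10 genes of known role, and up to 3 leading genes in each direction per further list. Other genes, among them Rbm28, Hnrnph2, Sf3a1, Sf3b4 and Srsf4, were named beyond this rule with their values known. Alternatives covered pseudocount, filter, normalization, limma settings, probe set choice, the replicate number as a block and each array left out. List symbols were matched directly or through RefSeq synonyms (GRCm38.p6). Promoters came from a RefSeq table of the same build. Python 3.11.15, pandas 2.3.3 and matplotlib 3.10.9 were used. The number of arrays limits the precision.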

Additional observations from a re-analysis of the deposited data

How the results depend on the processing

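Of 39 named genes under up to 17 alternatives, 502 of 660 values kept direction and call, 123 lost their call, 17 gained one and 18 changed sign. Rbm39 and Clk1 kept direction and call in all 17. Scaling to the hybridization controls gave 3649 rises and 230 falls over all probe sets (772 and 937 otherwise), 20 and 1 among members, 1 fall in the SR-related list, 12 rises in the snRNP list, and family medians of 0.20 (Rbm), -0.03 (Srsf), 0.53 (Sf3) and 0.26 (Hnrnp). It turned Hnrnpdl to 0.32, Hnrnpk to 0.22, Hnrnpu and Hnrnpul2 to 0.18, Rbm7 to 0.17, Rbm8a to 0.25, Sf3b1 to 0.03 and Srsf11 to 0.30. Without a filter, which tests more probe sets, 448 probe sets rose and 498 fell, 1 member rose, and 3 SR-related falls and 1 snRNP rise were left. Without the intensity trend 1 snRNP gene rose. Both without the filter and without the trend 2 Srsf genes fell, as Srsf5 and Srsf6 lost their calls. With probe sets averaged per gene, which leaves fewer features, 586 fell, medians were -0.18 (Srsf) and 0.14 (Sf3), and Hnrnpa2b1 (-0.13) and Hnrnpc (-0.05) changed sign. Without probe sets ending _x_at or _s_at the Srsf median was -0.21 and 3 Srsf genes fell. Quantile normalization turned Hnrnpa2b1 to -0.02. With 1 array left out, 406 to 659 probe sets rose and 491 to 792 fell, 1 to 4 members rose and 2 to 8 fell, 1 to 5 SR-related genes fell and 0 to 3 snRNP genes rose, and medians were -0.15 to -0.05 (Rbm), -0.43 to -0.24 (Srsf), 0.20 to 0.29 (Sf3) and -0.08 to -0.01 (Hnrnp); differences took both signs for Hnrnpa2b1 (-0.02 to 0.08), Hnrnpdl (-0.05 to 0.02) and Srsf11 (-0.13 to 0.07). Deviations from the group means correlated at 0.1202, -0.0334 and 0.1269 for same-numbered samples, and at -0.1487 to 0.029 for differently numbered ones. The values 0.1202 and 0.1269 were thus above every differently numbered pair. The labels do not say what the numbers stand for, and whether they mark a shared order was not tested. The main fit did not pair samples by number. With the replicate number as a block 3 members rose and 7 fell. Except as stated, the cause was not tested.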

Other observations

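Of 13 probe sets that carried several gene symbols, at least 1 of them from these families, 12 were bright enough to test. In the limma fit 0 rose, 1 fell and 11 did not pass, with differences from -0.62 to 0.20 and a median of -0.06. No gene is named from them.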
